A study of Mus musculus with 12 samples.

Results

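Hepatocyte nuclei of liver tissue were compared with hepatocyte nuclei of the cell suspension that was made from the same livers. Of the 53467 nuclei in the authors' table, 26423 were hepatocytes of these sample types and entered the comparison. They were the nuclei annotated as Hepatocytes or Isolated Hepatocytes, without the 1164 such nuclei of cluster 19. Liver samples gave 14003 of them, between 582 and 2470 per sample, and Cell Suspension samples gave 12420, between 655 and 2559 per sample. The study prepared both samples from each of 8 male wild-type mice, aged 10 to 12 weeks and fed chow ad libitum. The study's methods give the strain as C57BL/6NTac, and the labels give C57BL6J. Under avertin sedation each liver was flushed with a warm buffer free of calcium and magnesium until the blood had cleared. A piece of the tied-off median lobe was then snap-frozen and is the Liver sample, so Liver was itself taken after the flush. The rest of the liver was perfused with collagenase, and the cells were released into plating medium with serum, strained, washed by slow spins and frozen as a pellet, which is the Cell Suspension sample. The suspension thus came from other liver than the tied-off piece, and place in the liver and isolation cannot be told apart. Samples from the later culture of 24 hours were not used.

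Hepatocytes hold the liver's metabolic work: they make glucose, lipids, bile acids, urea and most plasma proteins, and they share that work along the lobule between a portal and a central side. Isolation by collagenase breaks their contacts with matrix and neighbours. Immediate early genes are those that many stimuli switch on within minutes without new protein synthesis. They encode short-lived transcription factors of the AP-1, EGR and NR4A families, and dual-specificity phosphatases that turn off the kinases upstream of them. Nuclei report mostly RNA that has just been made, since they hold unspliced precursors and little of the cytoplasm's spliced RNA.

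The value tested for each gene is the number of UMIs (unique molecular identifiers, 1 per captured RNA molecule) summed over the hepatocyte nuclei of a sample, spliced, unspliced and ambiguous together. Sums ranged from 2042585 to 29018248 UMIs. Levels are given as CPM, the gene's UMIs scaled to a common total per sample after TMM normalization, and differences as log2 of Cell Suspension over Liver ± SE, with n = 8 mice. A sum does not tell more nuclei with a gene from more RNA per nucleus. Nuclei of the Cell Suspension held fewer UMIs, with sample medians of 4556 to 13996 in Liver and 1904 to 6412 in Cell Suspension, lower in 8 of 8 mice (exact paired permutation test, adjusted p = 0.019). Spliced RNA made up 17.7 ± 1.38% (SD) of UMIs in Liver and 24.6 ± 2.7% in Cell Suspension, higher in 8 of 8 mice (adjusted p = 0.019). Thinned to 1000 UMIs, a nucleus of Liver held 721 ± 15.8 genes and one of Cell Suspension 675 ± 16.1, lower in 8 of 8 mice (adjusted p = 0.019). The part of depth and of spliced RNA in the results below was not tested beyond the counts with thinned sums and with each splicing state. Samples were mixed in 6 pools of 4, of which 4 held both sample types, and 327 of the hepatocyte nuclei carry a barcode that also occurs in another pool. The study's names followed expression and nearly followed sample type, since 12057 of the Cell Suspension nuclei were called Isolated Hepatocytes against 76 of the Liver nuclei.

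Hepatocyte markers were abundant in both sample types, and markers of other cell types were low. The sum of the 10 hepatocyte markers was 10819 to 16031 CPM in Liver and 14151 to 20090 CPM in Cell Suspension, and 5 of them rose and 1 fell. The 12 endothelial markers summed to 43.4 ± 6.99 CPM (SD, of unscaled sums) in Liver and 58.4 ± 15.5 CPM in Cell Suspension, higher in 7 of 8 mice (exact paired permutation test, adjusted p = 0.0332), though no longer past the threshold when any mouse but mouse 3 was left out (differences of 12.8 to 16.5 CPM). In endothelial nuclei of the same samples the same list summed to 13968 CPM in Liver and 13367 CPM in Cell Suspension. Unscaled, Kupffer cell markers summed to 9.4 to 21.8 CPM in Liver and 7.78 to 37.2 CPM in Cell Suspension. Leukocyte markers summed, also unscaled, to 6.75 to 15.3 CPM and 3.2 to 22 CPM. Biliary markers, led by Pkhd1 with a mean of 147.3 CPM in Liver, were lower as unscaled sums in 8 of 8 mice (159.6 ± 27.6 against 138 ± 24.1 CPM, adjusted p = 0.019). On the TMM scale of the gene levels, compared after seeing the data, they were lower in 5 of 8 mice and missed the threshold (151.8 ± 30.3 against 146.8 ± 31.5 CPM, exact paired permutation test, adjusted p = 0.708), and no single biliary marker fell. The endothelial sums on that scale were higher in 8 of 8 mice (41.1 ± 6.96 against 60.9 ± 12.5 CPM, exact paired permutation test, adjusted p = 0.019). Kupffer cell sums on that scale were higher in 5 of 8 mice and missed the threshold (13.3 ± 4.65 against 18.5 ± 7.52 CPM, exact paired permutation test, adjusted p = 0.118). The part of RNA from endothelial or other cells in the rises below was not tested.

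Of 24485 genes tested, 7751 (31.7%) differed between the sample types at an adjusted p of 0.05 in edgeR's quasi-likelihood test with the mouse as a block and Benjamini-Hochberg adjustment. All adjusted p-values for genes below come from this test. In Cell Suspension 2987 genes (12.2%) were higher and 4764 (19.5%) were lower. By at least 1 on the log2 scale 835 genes rose and 1166 fell, and by at least 2, 207 rose and 174 fell. The 8 samples of one type lay wholly above the 8 of the other for 1500 genes (6.13%), 370 of them higher and 1130 lower in Cell Suspension. Counts of list members below are to be read beside these shares. The shares are over genes of mostly low level, with a median of 2.11 CPM in Liver, below the median of most lists. With edgeR's filter against low levels a larger share passed, 7855 of 17095 genes, 3654 higher and 4201 lower. List shares of about 50% below are close to that share. The balance of rises and falls depends on the scaling, since upper-quartile scaling moved the median difference of all genes from 0.01 to 0.14 and gave 4577 rises and 3539 falls. With all sums thinned to the smallest, 2489 genes rose and 2601 fell. The study's own model had no term for the mouse. Without the mouse as a block 5273 genes passed, and 5198 of them passed in the same direction with it. Within the 4 pools that held both sample types, 1860 genes were higher and 3036 lower.

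**Figure D1:**
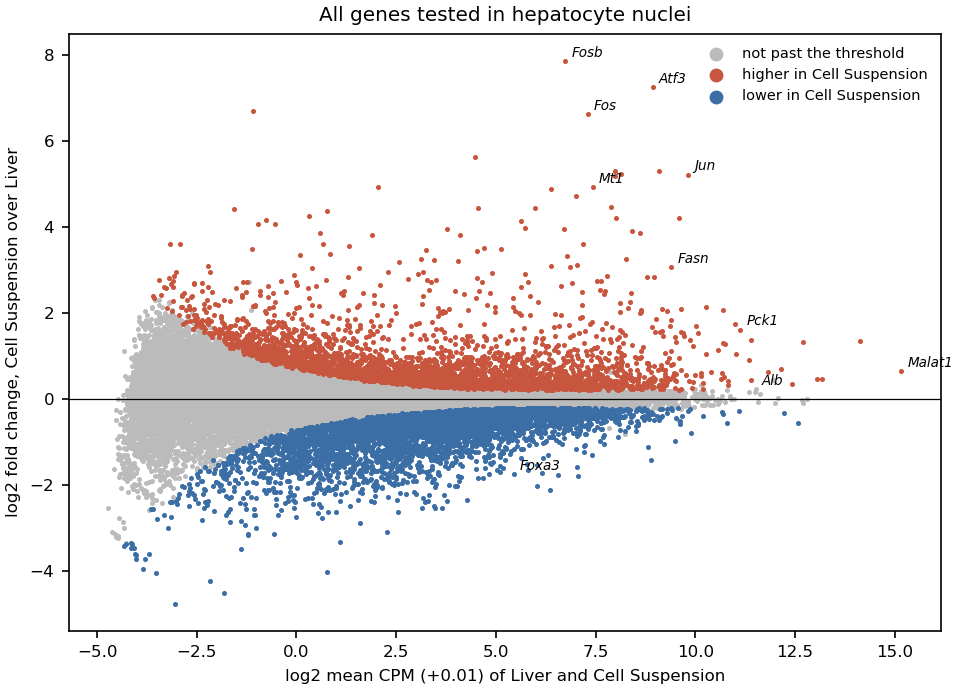
Each point is 1 of the 24485 genes tested, with the mean level over the 16 samples on the x axis (CPM, log scale) and log2 of Cell Suspension over Liver on the y axis, and coloured points passed the adjusted threshold. The highest point is Fosb at 7.85, and the lowest points belong to genes of low level.

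Immediate early genes rose together and furthest. Of the 28 members tested, 25 rose (89.3% beside 12.2% of all genes) and none fell. The median was 2.41 on the log2 scale beside 0.01 over all genes. Of the 28, 16 did not overlap between sample types, beside 6.13% of all genes. The 3 largest rises of all genes named by the rule were here. Fosb, which encodes a partner of JUN in AP-1 (chr7:19302696-19310051, minus strand, GRCm38), read 0.468 to 1.58 CPM (median 0.994) in Liver and 74.3 to 404 CPM (median 218) in Cell Suspension. Its log2 difference was 7.85 ± 0.27 (adjusted p = 2.05e-08). Atf3, a stress-induced repressor of the ATF family (chr1:191170296-191218039, minus strand), read 2.77 to 11 CPM (median 6.46) in Liver and 401 to 1517 CPM (median 986) in Cell Suspension, a difference of 7.25 ± 0.34 (adjusted p = 9.15e-07). Fos, the name-giving AP-1 subunit (chr12:85473890-85477273, plus strand), read 2.29 to 4.72 CPM (median 3.02) in Liver and 178 to 442 CPM (median 303) in Cell Suspension, a difference of 6.62 ± 0.11 (adjusted p = 2.82e-55). For these genes the lowest Cell Suspension sample stood far above the highest Liver sample. A rise in each mouse was part of the rule that named them.

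The promoters of Fos, Fosb, Atf3 and Btg2 are shown because they are among the largest rises named and each holds the cyclic AMP response element (CRE) or its core. Capitals mark the core TGACG, read on either strand, or for Btg2 the whole element TGACGTCA. The stretches are 120 bases of reference sequence from RefSeq (GRCm38.p6) before the start that RefSeq gives, on the strand of the gene, at chr12:85473735-85473854 for Fos, chr7:19310046-19310165 for Fosb, chr1:191183334-191183453 for Atf3 and chr1:134079258-134079377 for Btg2. For Atf3 the RefSeq start lies inside the GENCODE span given above. Jun, a rise of like size, had no TGACG in its stretch, and Egr1 and Ier2 were not matched in the table.
Fos: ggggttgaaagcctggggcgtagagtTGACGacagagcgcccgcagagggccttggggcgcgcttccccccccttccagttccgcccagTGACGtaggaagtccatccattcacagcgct
Fosb: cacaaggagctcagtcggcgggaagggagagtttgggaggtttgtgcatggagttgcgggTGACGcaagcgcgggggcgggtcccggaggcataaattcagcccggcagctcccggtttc
Atf3: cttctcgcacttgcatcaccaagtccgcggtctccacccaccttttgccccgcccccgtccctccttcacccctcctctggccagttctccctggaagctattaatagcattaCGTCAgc
Btg2: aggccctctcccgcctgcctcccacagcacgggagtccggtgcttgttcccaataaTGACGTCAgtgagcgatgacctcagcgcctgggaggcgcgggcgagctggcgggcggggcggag
Searched over 250 bases before the start and on both strands, TGACG occurred in 14 of the 22 immediate early promoters found in the table (63.6%) and in 19.8% of all 27025 promoters. The whole element TGACGTCA, which contains the core, occurred in 3 of the 22 (13.6%) and in 1.77% of all. The core was also common where genes fell, at 41.5% of 65 cytosolic ribosomal protein promoters and 33.3% of 66 respiratory chain promoters. A match describes these letters and not binding, and the list was written with earlier results known.

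Other transcription factors of the early response rose as well. Egr1, a zinc finger factor, read 14.3 to 61.7 CPM (median 24.5) in Liver and 842 to 1338 CPM (median 1015) in Cell Suspension, a difference of 5.30 ± 0.39 (adjusted p = 1.71e-05). Jun, the partner of FOS, read 29.6 to 62 CPM (median 56.5) and 1079 to 2612 CPM (median 1620.0), a difference of 5.21 ± 0.20 (adjusted p = 4.6e-09). Ier2, an early response gene, read 10.3 to 20.6 CPM (median 13.4) and 394 to 625 CPM (median 554) (5.23 ± 0.11, adjusted p = 8.13e-37). Btg2, an antiproliferative gene and p53 target, read 6.96 to 19.1 CPM (median 12.2) and 296 to 754 CPM (median 445) (5.29 ± 0.26, adjusted p = 1.24e-06). The groups were apart for each of these. Nr4a1, an orphan nuclear receptor, rose by 4.12, Maff by 3.97, Junb by 3.61 and Egr2 by 3.60. Members of the same families did not move alike. Fosl2 rose by only 0.64, and Nr4a2, a close relative of Nr4a1, had a difference of 0.22 ± 0.23 (adjusted p = 0.53). Egr3 and Klf4 did not pass, at 0.96 and 0.96, but their levels were too low to tell whether they moved. Egr3 read at most 0.131 CPM in Liver and 1.32 CPM in Cell Suspension, and Klf4 at most 0.291 and 0.913 CPM. Brakes on the response rose with it: Zfp36, which destabilises AU-rich mRNAs, by 2.75, Dusp6 by 1.96 and Dusp1 by 1.32. Myc, a growth factor-responsive regulator, rose by 1.92, with 0.356 to 22.1 CPM (median 2.44) in Liver and 6.18 to 33.8 CPM (median 16.1) in Cell Suspension.

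**Figure D2:**
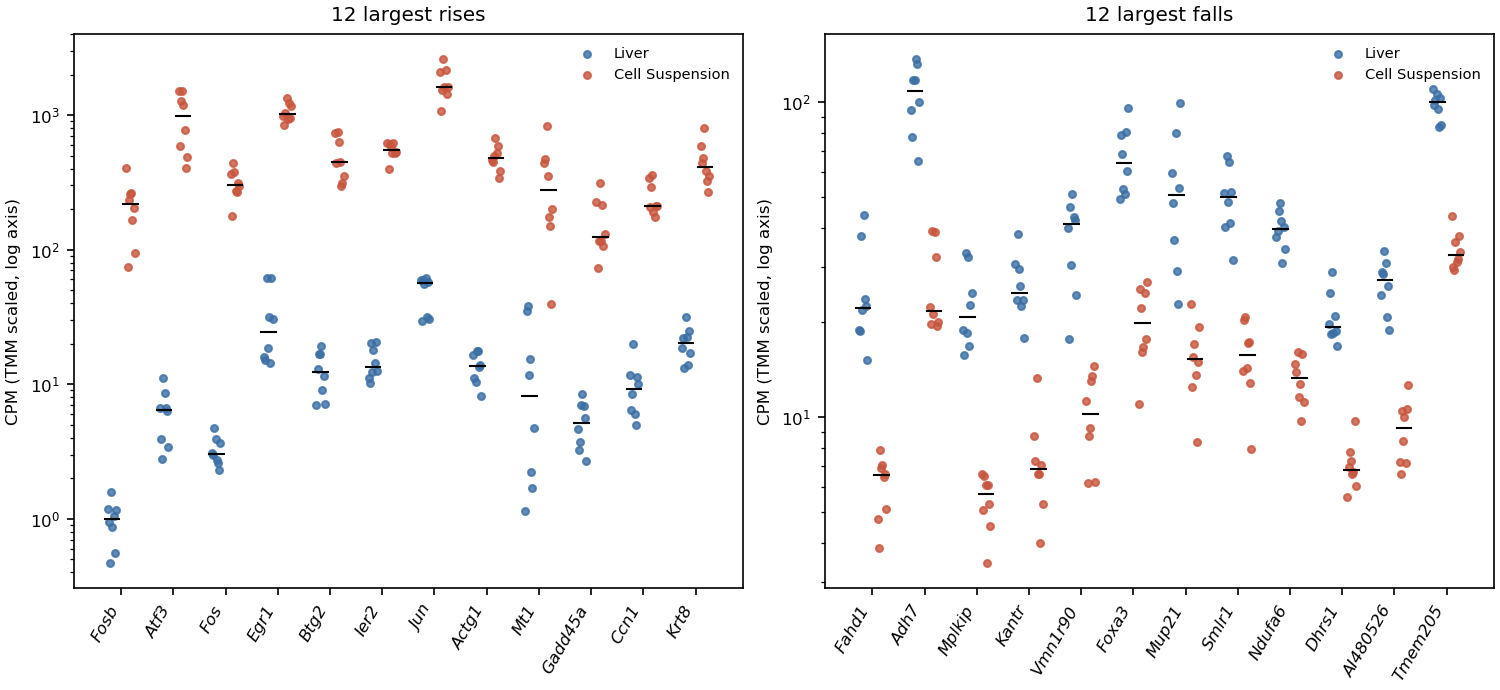
Level in each sample (CPM, log axis) of the 12 largest rises and 12 largest falls among genes of at least 20 CPM in the higher type with 1 direction in 8 of 8 mice, with Liver and Cell Suspension samples of the same mouse as separate points. Genes with predicted or clone names and markers of other cell types were left out. In all 24 genes the 8 samples of one type lie wholly above the 8 of the other.

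Genes of the actin and keratin cytoskeleton rose as well. Of 21 members 12 rose (57.1% beside 12.2% of all genes) and none fell, with a median of 0.63. Of the 21, 8 did not overlap between sample types, beside 6.13% of all genes. Actg1, cytoplasmic gamma-actin (chr11:120345690-120348542, minus strand), read 8.11 to 17.7 CPM (median 13.7) in Liver and 341 to 680.2 CPM (median 479.9) in Cell Suspension, a difference of 5.18 ± 0.11 (adjusted p = 5.56e-43). Actb, beta-actin, rose by 3.90. The actin genes are near-identical in sequence and have many processed copies, so reads can be split between them and each value is less certain than its SE. Krt8 and Krt18, the paired keratins of hepatocytes, rose by 4.46 and 3.85. Krt8 read 13.3 to 31.4 CPM (median 20.3) in Liver and 269 to 801 CPM (median 412) in Cell Suspension. Srf, the serum response factor that activates actin genes, rose by 2.76, with 2.3 to 3.64 CPM (median 3.1) in Liver and 14.9 to 25.2 CPM (median 17.9) in Cell Suspension, and Vcl, vinculin of focal adhesions, by 1.49. Mrtfa, the actin-sensing partner of SRF, had a difference of 0.04 ± 0.08 (adjusted p = 0.773). The regulator SRF binds the CArG box, and the promoters of Actg1 (chr11:120348521-120348640) and Srf (chr17:46556170-46556289) are shown with that box in capitals.
Actg1: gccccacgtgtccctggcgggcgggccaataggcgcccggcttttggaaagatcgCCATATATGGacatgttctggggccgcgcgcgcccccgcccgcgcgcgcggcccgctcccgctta
Srf: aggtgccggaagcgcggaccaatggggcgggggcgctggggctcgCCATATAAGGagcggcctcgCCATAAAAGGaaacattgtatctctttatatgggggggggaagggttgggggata
A CArG box occurred in 5 of 19 promoters of this list (26.3%) and in 1.62% of all promoters. The list holds Srf itself and was written with earlier results known, and a part of SRF was not tested. These matches, too, are letters and not binding. Of the 13 YAP and TEAD targets, 4 rose and 1 fell, 38.5% in all beside 31.7% of all genes. Ccn1, a matricellular early gene, read 4.95 to 19.9 CPM (median 9.25) in Liver and 176 to 358 CPM (median 212) in Cell Suspension, a difference of 4.72 ± 0.11 (adjusted p = 1.25e-31). The kinase gene Lats2, a brake on YAP, fell by 0.30, a call lost in 5 alternative settings and with 0.09 in spliced RNA alone.

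Chaperone genes rose, led by those of the cytosol. In the heat shock list 12 of 16 rose and 1 fell, with a median of 0.64. Dnajb1, a co-chaperone of HSP70, read 1.75 to 4.37 CPM (median 2.16) in Liver and 17.4 to 43.6 CPM (median 33.8) in Cell Suspension, a difference of 3.82 ± 0.13 (adjusted p = 1.78e-27). Hspb1, a small heat shock protein, rose by 2.94, Hspa8, the constitutive HSP70, by 2.75, and Hsp90aa1, the inducible HSP90, by 2.34. The mitochondrial chaperones Hspd1 and Hspe1 rose by 0.71 and 0.94. Hsf1, whose product activates these genes, did not pass at -0.20, and Chordc1 fell by 0.30, a call lost in 9 of 24 alternative settings, among them without mouse 5 (-0.23) and under upper-quartile scaling. Mouse 8 stood apart in Liver, where Hspa8 read 88.2 CPM against at most 58.3 CPM in the other Liver samples and Hsp90aa1 31.5 CPM against at most 17.5 CPM. The Hspb1 promoter (chr5:135887756-135887875) is shown with the inverted repeat GAANNTTC of the heat shock element in capitals.
Hspb1: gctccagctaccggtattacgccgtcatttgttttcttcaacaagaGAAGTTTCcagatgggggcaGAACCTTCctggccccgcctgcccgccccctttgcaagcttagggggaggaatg
This repeat occurred in 6 of 12 heat shock promoters (50.0%) and in 7.73% of all. It likewise describes letters, in a list written with earlier results known.

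In the list of the unfolded protein response 11 of 20 rose and 1 fell, with a median of 0.41. Ppp1r15a, the phosphatase subunit that reverses the translation block, rose by 2.80, with 3.75 to 6.55 CPM (median 5.84) in Liver and 27.9 to 55.5 CPM (median 41) in Cell Suspension. Hspa5, the chaperone BiP of the endoplasmic reticulum, read 41 to 123 CPM (median 68.2) in Liver and 98.9 to 1542 CPM (median 189) in Cell Suspension, a difference of 1.77 ± 0.31 (adjusted p = 0.00315). Its highest value, in mouse 8, was 1542 CPM, whereas the other Cell Suspension samples reached at most 307.3 CPM. Without mouse 8 the difference was 1.53. Dnajb9 rose by 1.75, Atf4 by 0.67 and Xbp1 by 0.30, a call lost in 7 alternative settings, either splicing state alone among them (0.24 spliced and 0.11 unspliced). Ddit3, the CHOP factor of prolonged stress, had a difference of 0.15 ± 0.10 (adjusted p = 0.247), and Manf fell by 0.46, a call lost in 7 alternative settings, among them without mouse 4 (-0.36), and a sign that turned in spliced RNA alone (0.01).

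Among genes of growth arrest and p53, 8 of 16 rose and 1 fell. The 3 Gadd45 genes, sensors of stress that act on MAP kinases, led them. Gadd45a read 2.67 to 8.5 CPM (median 5.12) in Liver and 72.8 to 314 CPM (median 123) in Cell Suspension, a difference of 4.88 ± 0.26 (adjusted p = 1.83e-06). Gadd45g rose by 4.21 and Gadd45b by 3.94. Gdf15, a secreted stress hormone, rose by 3.94 and Plk3 by 2.53. Cdkn1a, the cell cycle inhibitor p21, rose by 1.87 but stayed low, at 0.469 to 7.0 CPM (median 3.17) in Cell Suspension. Trp53inp1 rose by 1.40 and Ccng1 fell by 0.50, and Mdm2 and Bax were not past the threshold at 0.16 and 0.29.

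Metallothioneins, the small proteins that bind zinc and copper, rose in every mouse. Mt1 read 1.13 to 38 CPM (median 8.21) in Liver and 39.7 to 825 CPM (median 275) in Cell Suspension, a difference of 4.92 ± 0.55 (adjusted p = 0.000243). Mt2 rose by 4.44 (5.10 without mouse 5), and reads of this pair can be split between them. The Liver range of Mt1 was wide, but each Cell Suspension sample stood above all Liver samples. Across the 14 metal response genes 5 rose and 2 fell, 50% in all beside 31.7% of all genes. Among the falls was Mtf1, which encodes the zinc sensor that activates metallothioneins, down by 0.35 (with 0.26 in spliced RNA alone). Of 20 NRF2 targets 7 rose and 3 fell, likewise 50% in all, with Hmox1, heme oxygenase, up by 3.20 and Osgin1 by 2.07. Nqo1 did not pass at -0.25, nor did Nfe2l2 itself at -0.10. Of 14 hypoxia genes 7 rose and 1 fell, Vegfa by 1.03 and Hif1a by 0.80 among the rises.

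Genes of inflammation rose in part. In the NF-kB list 9 of 18 rose and none fell. Socs3, the inhibitor that IL-6 signalling induces, rose by 4.44, with 1.69 to 9.06 CPM (median 5.74) in Liver and 20.3 to 249 CPM (median 122) in Cell Suspension. Cxcl1, a neutrophil chemokine, rose by 3.10, and mouse 3 was highest in both sample types, with 51.2 CPM in Liver and 361 CPM in Cell Suspension. Nfkbiz rose by 1.65, while Nfkb1 had a difference of -0.03 ± 0.08 (adjusted p = 0.84). In the acute phase list 18 of 24 rose and none fell, with a median of 1.43. The fibrinogen genes rose together, Fgg by 2.09, Fgb by 2.08 and Fga by 1.57. Fgb read 334 to 1162 CPM (median 526) in Liver and 1221 to 3960.3 CPM (median 2974) in Cell Suspension. Hp, haptoglobin, rose by 1.43, Hpx, hemopexin, by 1.55, and the regulators Cebpb and Cebpd by 2.39 and 2.91. Saa1 rose by 2.43, with reads that its close copy Saa2 can share. Lcn2 rose by 3.25, but its level rested on few UMIs and ranged from 0 to 46 CPM (median 14) in Cell Suspension. The call was lost in 5 alternative settings, among them without mouse 3 (2.99) or mouse 8 (3.04), and the difference was 2.60 without mouse 1 and 4.16 without mouse 5. Crp and Il6ra did not pass, at -0.06 and -0.08.

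Fasting genes of glucose production rose along with genes of glycolysis. Of 14 gluconeogenic genes 10 rose and none fell, with a median of 0.59. Pck1, which commits oxaloacetate to glucose, read 447 to 1722 CPM (median 1118) in Liver and 2506 to 4165 CPM (median 3341) in Cell Suspension, a difference of 1.61 ± 0.11 (adjusted p = 6.41e-16). G6pc, which releases free glucose, rose by 1.74, Tat by 1.13 and Got1 by 1.85. Ppargc1a, Foxo1 and Pcx did not pass, at 0.05, 0.15 and 0.02. Of 14 targets and parts of cyclic AMP signalling 8 rose and 3 fell. Sik1, an early target of CREB, rose by 1.98 and Gcgr, the glucagon receptor, by 0.71, while Creb1 fell by 0.33.

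Insulin signalling genes were divided, with 5 of 15 higher and 4 lower. Irs2 read 36.5 to 65.2 CPM (median 53.4) in Liver and 179 to 299 CPM (median 221) in Cell Suspension, a difference of 2.18 ± 0.09 (adjusted p = 9.79e-31). Its paralog Irs1 fell by 0.75, with 0.15 in spliced RNA alone. Both encode adaptors of the insulin receptor, and Insr itself had a difference of -0.09 ± 0.08 (adjusted p = 0.448). Igfbp1, which insulin represses, rose by 2.51. Of 20 glycolytic genes 12 rose and 2 fell, with Gapdh up by 1.60. Slc2a2, the glucose transporter of hepatocytes, fell by 0.44. Pklr followed the mouse more than the sample type, highest in mouse 6 with 652 CPM in Liver and 639 CPM in Cell Suspension.

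Lipid genes parted by pathway. Of 17 lipogenic genes 12 rose and none fell, with a median of 0.97. Fasn, fatty acid synthase, read 54 to 260.0 CPM (median 161) in Liver and 626 to 1855 CPM (median 1109.8) in Cell Suspension, a difference of 3.07 ± 0.17 (adjusted p = 3.97e-08). Scd1, which makes monounsaturated fatty acids, rose by 2.11, Thrsp by 1.47, Srebf1, the master regulator of the pathway, by 1.46 and Acly by 1.22. Acaca, which supplies malonyl-CoA, did not pass at 0.19, but did in 11 of 24 alternative settings (differences of 0.21 to 0.38). Cholesterol genes went the other way in number, with 6 of 22 higher and 10 lower. Insig1, which holds back sterol synthesis, rose by 1.12. The sterol enzyme genes Msmo1, Nsdhl and Dhcr7 fell by 0.79, 0.73 and 0.71, the isoprenoid enzyme gene Idi1 by 0.64 and Srebf2 by 0.44. In fatty acid oxidation 9 of 23 rose and 8 fell. Pdk4, which shuts glucose carbon out of the citric acid cycle, read 0.624 to 13.4 CPM (median 3.04) in Liver and 6.81 to 213 CPM (median 27.6) in Cell Suspension, a difference of 3.48 ± 0.45 (adjusted p = 0.00058). Ppara rose by 0.41, whereas Cpt2 fell by 0.87 and the lipid droplet gene Cidec by 1.47.

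Genes of bile acids and xenobiotics changed in both directions, mostly by small amounts. Of 19 genes of bile acid synthesis and transport 4 rose and 7 fell. Cyp7a1, the rate-limiting enzyme of bile acid synthesis, read 56.1 to 292 CPM (median 163) in Liver and 49.9 to 314 CPM (median 100.4) in Cell Suspension, with overlapping samples, a difference of -0.49 ± 0.10 (adjusted p = 0.000298). Nr0b2, the repressor SHP, rose by 1.09, and Nr1h4, the bile acid receptor FXR, fell by 0.52. Akr1d1 fell by 0.70, and the uptake transporters Slco1b2 and Slc10a1 by 0.27 and 0.26. The call of Slco1b2 was lost in 9 alternative settings, and that of Slc10a1 in 11, with its sign turned in spliced RNA alone (0.19). Both were lost under RLE and upper-quartile scaling and without mouse 5 (-0.25 and -0.21) or mouse 6 (-0.25 and -0.24), and that of Slc10a1 without mouse 2 (-0.23). The export pump Abcb11 rose by 0.22, but the call was lost in 10 alternative settings, among them without any of mice 1 to 6 (0.20 to 0.24) and the sign turned with the pool as a term (-0.11). Abcb11 also followed the mouse, at 969 to 1379 CPM in Liver of mice 1, 3, 5 and 7. In Liver of mice 2, 4, 6 and 8 it read 215 to 343 CPM. Of 75 cytochrome P450 genes of families 1 to 4, 12 rose and 10 fell, 29.3% in all and near the share of all genes. Cyp2d10 rose by 0.94 and Cyp2d9 by 0.68, and Cyp4a32 fell by 0.86 but rose by 0.55 in spliced RNA alone, all from clusters of similar genes that can share reads. Cyp3a11, a drug-metabolising enzyme, rose by 0.30, a call lost in 7 alternative settings, among them without mouse 5 (0.22), with a sign that turned in 2 more, those with the pool as a term (-0.46). Cyp2e1, Cyp1a2 and Cyp3a25 did not pass, at -0.01, -0.23 and -0.08.

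Genes of nitrogen metabolism leaned upward. In the urea cycle and glutamine list 6 of 11 rose and none fell, Asl by 0.95, Arg1 by 0.39, Cps1 by 0.36 and Ass1 by 0.33. Cps1, which makes carbamoyl phosphate, read 3146 to 7454 CPM (median 4534) in Liver and 3907 to 8184 CPM (median 5774) in Cell Suspension, so the samples overlapped. Otc did not pass at -0.21. Of 30 genes of amino acid breakdown 19 rose and 6 fell, Cth up by 1.45, Hpd by 1.03 and Hal by 0.67. Of 17 amino acid transporters 6 rose and none fell, 35.3% in all beside 31.7% of all genes, Slc38a2 by 1.26.

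Transcription factors that define hepatocytes did not move as a block, with 7 of 23 higher and 7 lower. Foxa3, a pioneer factor of liver genes (chr7:19013284-19023538, minus strand), read 49.2 to 96.1 CPM (median 64.4) in Liver and 11.1 to 26.8 CPM (median 19.9) in Cell Suspension, a difference of -1.75 ± 0.09 (adjusted p = 8.39e-27). Every Cell Suspension sample lay below every Liver sample. Its relatives differed less, with Foxa2 down by 0.43, a call lost in 6 alternative settings, and Foxa1 not past the threshold at -0.01. Hnf4a, the central regulator of hepatocyte identity, read 350.3 to 535 CPM (median 403) in Liver and 271 to 474 CPM (median 347) in Cell Suspension, a difference of -0.21 ± 0.08 that missed the threshold (adjusted p = 0.0564). Tbx3, a central-side factor, fell by 1.13, whereas Cebpa rose by 0.94 and Rxra by 0.79. Onecut1, an early liver factor, followed the mouse: it read 1695 and 1640 CPM in Liver and Cell Suspension of mouse 5 and 1466 and 1667 CPM in those of mouse 6, and at most 294 CPM in the other samples. Its difference was 0.30 ± 0.29 (adjusted p = 0.518).

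Clock genes rose in 8 of 19 cases and fell in 3. Bhlhe40 rose by 2.25, Nfil3 by 1.57, Per1, which also answers to stimuli within minutes, by 1.34 and Nr1d1 by 1.06. Hlf fell by 0.55 and Per3 by 0.45, and the core pair Arntl and Clock did not pass, at 0.02 and 0.17. Arntl, Per1, Per3 and Clock followed the mouse. In Liver Arntl read 46.6 to 84.5 CPM in mice 1, 3, 5 and 7 and 7.82 to 15.4 CPM in mice 2, 4, 6 and 8. Per1 read 8.29 to 10.6 and 26.4 to 52.8 CPM in these Liver samples, and 27.4 to 40.7 and 56.6 to 92.8 CPM in Cell Suspension. Per3 read 18.9 to 40.3 and 107 to 139 CPM in these Liver samples, and Clock 145 to 182 and 80.3 to 86 CPM. The differences of these genes thus average mice of unlike level. Of 13 glucocorticoid targets 11 rose and 1 fell, with a median of 1.06. Klf9 rose by 1.68, but Tsc22d3, a direct target, fell by 0.22 and Fkbp5 did not pass at -0.06. The call of Tsc22d3 was lost in 14 of 24 alternative settings, among them under RLE and upper-quartile scaling and without any of mice 3, 5, 6 and 8 (-0.21, -0.22, -0.18 and -0.19). Several members of this list, such as Per1, Pdk4 and Tat, also stand in other lists. In all, 52 of the 926 listed genes stand in more than 1 list, so the counts of lists are not separate.

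Genes of secreted proteins changed in both directions. Of 25 plasma protein genes 8 rose and 5 fell, 52% in all beside 31.7% of all genes. Apob rose by 0.60, and F9 and Ttr fell by 0.83 and 0.40. Alb, albumin, read 1897 to 3891 CPM (median 2496) in Liver and 2062 to 4674 CPM (median 2823) in Cell Suspension, a difference of 0.23 ± 0.09 (adjusted p = 0.0583) that passed in 11 of 24 alternative settings. Of 27 complement and coagulation genes 7 rose and 10 fell, and upper-quartile scaling turned the sign of their median, from -0.09 to 0.04. Among junction genes 5 of 20 rose and 6 fell, 55% in all. The gap junction pair parted, with Gjb2, connexin 26, up by 1.19 and Gjb1, connexin 32, down by 0.70. In the TGF-beta list 5 of 17 rose and 1 fell, 35.3% in all beside 31.7% of all genes, with Id2 up by 1.80. Of 15 genes of growth hormone and IGF 5 rose and 3 fell (53.3% in all). Of 12 genes of EGF and HGF signalling 6 rose and 1 fell (58.3%). Igf1, the growth hormone target, had a difference of -0.11 ± 0.12 (adjusted p = 0.557), and Ghr, the growth hormone receptor, one of -0.09 ± 0.09 (adjusted p = 0.554).

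**Figure D3:**
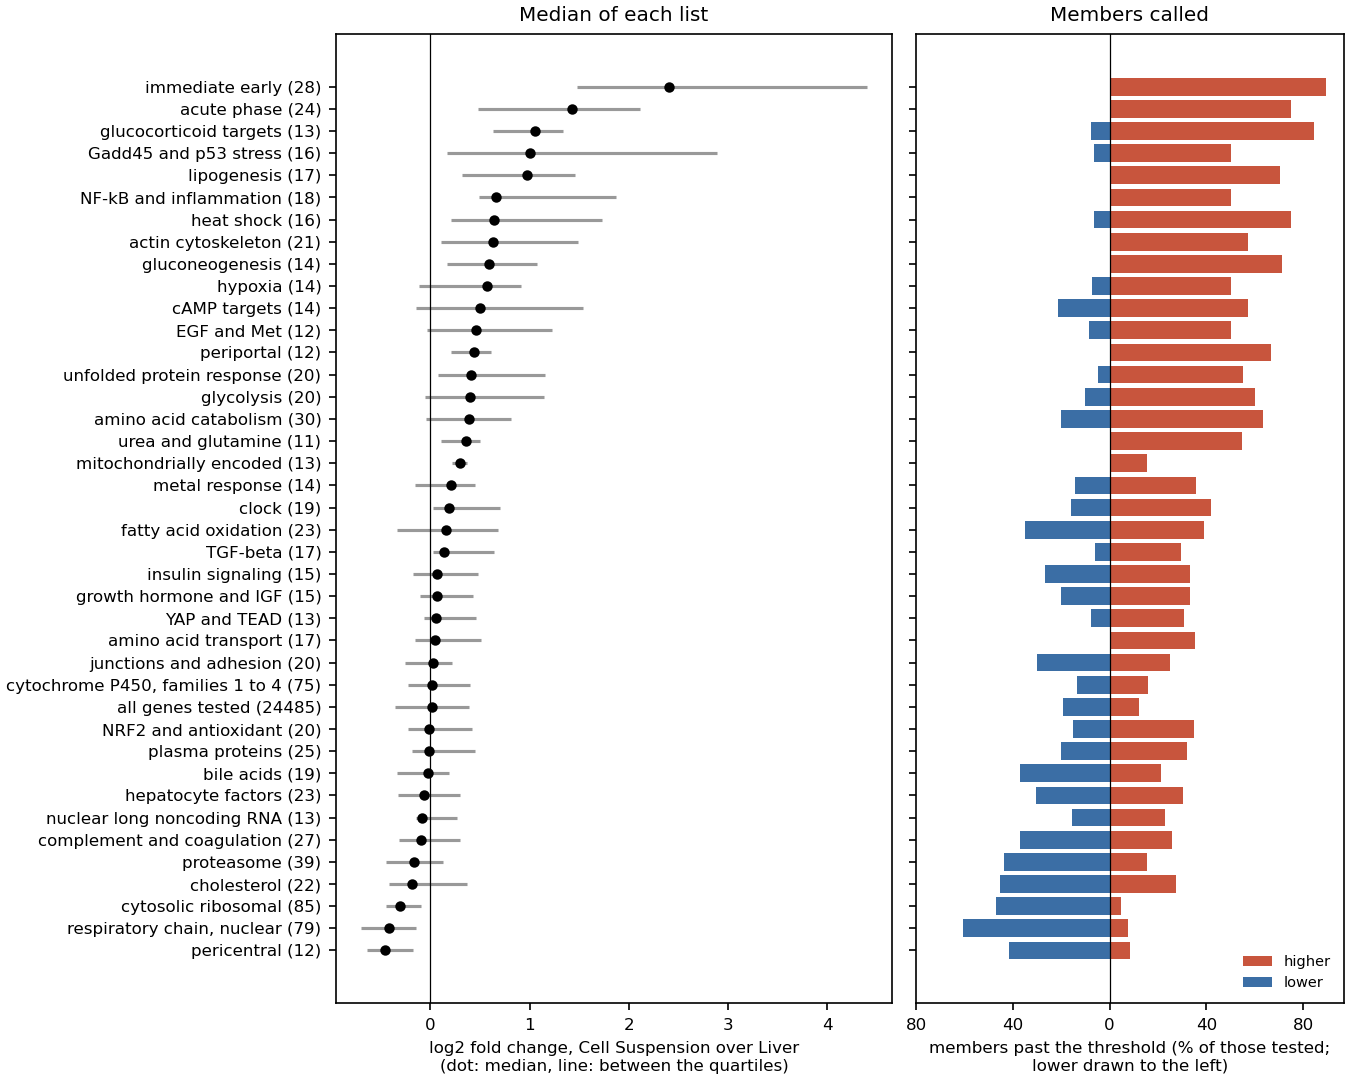
Each row is a gene list or all genes tested, with the number tested in brackets. On the left are the median (dot) and the range between the quartiles (line) of log2 of Cell Suspension over Liver, and on the right the percentage of members past the threshold in each direction. Immediate early genes reach furthest to the right with a median of 2.41, and respiratory chain genes lie mostly left of 0 with a median of -0.41.

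Among genes of at least 20 CPM that moved in 1 direction in 8 of 8 mice, the largest falls named were smaller than the largest rises. They touched genes of many functions. Genes with predicted or clone names and markers of other cell types were left out of this choice. Some genes at lower levels fell further. Fahd1, a mitochondrial hydrolase (chr17:24848892-24850364, minus strand), read 15.2 to 43.8 CPM (median 22.2) in Liver and 3.86 to 7.9 CPM (median 6.54) in Cell Suspension, a difference of -2.02 ± 0.12 (adjusted p = 3.67e-24). Adh7, an alcohol dehydrogenase (chr3:138217760-138233382, plus strand), read 65.2 to 137 CPM (median 109) and 19.4 to 38.9 CPM (median 21.8), a difference of -2.01 ± 0.09 (adjusted p = 3.5e-29). Mplkip, named for its link to a Polo-like kinase, fell by 1.99, and Kantr, a long noncoding RNA, was 3.72-fold lower. Kantr read 17.8 to 38.2 CPM (median 24.9) in Liver and 3.99 to 13.3 CPM (median 6.84) in Cell Suspension. For each of these genes every Cell Suspension sample lay below every Liver sample. Vmn1r90 and Mup21 fell by 1.84 and 1.69 and belong to large families of similar genes. For Mup21 the gap between the types was narrow, with a lowest Liver sample of 22.9 CPM and a highest Cell Suspension sample of 22.8 CPM. Smlr1 fell by 1.66, Dhrs1 by 1.60, the long noncoding RNA AI480526 by 1.57 and Tmem205 by 1.52.

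Nuclear genes of the respiratory chain fell as a group. Of 79 members tested 48 fell (60.8% beside 19.5% of all genes), 6 rose and 25 did not pass, with a median of -0.41. Upper-quartile scaling left 43 lower and 8 higher. Ndufa6, a subunit of complex I (chr15:82350140-82354322, minus strand), read 30.8 to 47.9 CPM (median 39.6) in Liver and 9.74 to 16.1 CPM (median 13.3) in Cell Suspension, a difference of -1.60 ± 0.10 (adjusted p = 5.72e-23). Cox5a of complex IV fell by 1.35 and Atp5f1 of ATP synthase by 1.27, while Cyc1, cytochrome c1, rose by 0.51. Of the 13 genes encoded in the mitochondrial genome 2 rose and none fell, 15.4% beside 31.7% of all genes, mt-Nd3 by 0.85, and mt-Co1 did not pass at 0.30. These RNAs lie outside the nucleus and made up 0.154 ± 0.0345% of UMIs in Liver and 0.172 ± 0.0614% in Cell Suspension. Cytosolic ribosomal protein genes fell in 40 of 85 cases (47.1%) and rose in 4, with a median of -0.30. Their short exons and many processed copies make single members uncertain, and Rps14 fell by 0.83. Of 39 proteasome genes 17 fell and 6 rose, with 12 lower and 10 higher under upper-quartile scaling. Of 13 long noncoding RNAs of the nucleus 3 rose and 2 fell, 38.5% in all beside 31.7% of all genes, with Malat1 and Neat1 up by 0.64 and 0.45. The call of Neat1 was lost in 5 of the alternative settings, spliced RNA alone among them (0.08).

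Spliced and unspliced RNA were also fitted apart, each scaled to its own total. Each difference is thus relative to the other RNA of that state. Spliced RNA made up 17.7% of UMIs in Liver and 24.6% in Cell Suspension. A small fall on the spliced scale therefore need not be a fall among all UMIs. Of 14367 genes tested in both states 2560 passed in both, 726 higher and 1415 lower in each. The other 419 (16.4%) moved in opposite directions on these 2 scales, 309 of them with spliced RNA higher and unspliced RNA lower. Fos rose by 6.34 in spliced and 6.39 in unspliced RNA, and Atf3 by 7.47 and 7.36. Jun was tested in spliced RNA alone, where it rose by 4.81. Elovl5, a fatty acid elongase, rose by 2.29 in unspliced RNA, with -0.29 in spliced RNA. Ppara read 0.61 unspliced and -0.27 spliced. The reverse held for Nr1h4, at -0.42 unspliced and 0.35 spliced, and for Nfe2l2, at -0.32 and 0.49. For the respiratory chain the median was -0.91 in unspliced and -0.30 in spliced RNA. For ribosomal proteins it was -0.55 and -0.64, beside -0.30 with the states added, and 71 members were lower on the spliced scale. The proteasome list changed its balance, with 23 lower and 2 higher in unspliced RNA (median -0.39) and 4 lower and 8 higher in spliced RNA (median 0.03). The states are those of the deposited matrices.

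**Figure D4:**
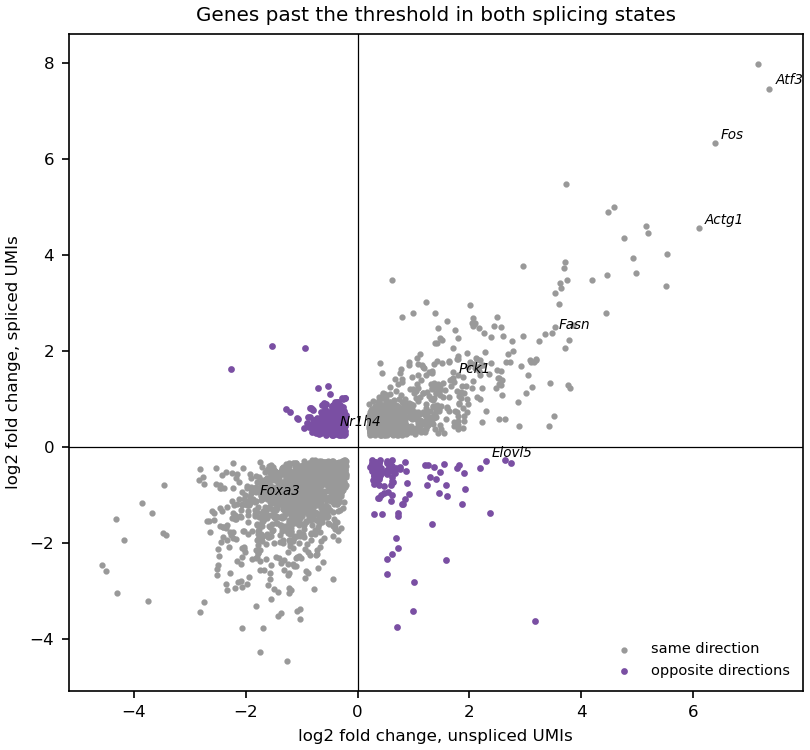
Log2 difference of Cell Suspension over Liver in unspliced RNA (x axis) against spliced RNA (y axis) for genes past the threshold in both states. Each state was scaled to its own total. Points in the upper right rose in both, Fos and Atf3 among them, and 419 genes lie in the quadrants where the signs differ.

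Markers of the lobule's sides differed. Of 12 periportal genes 8 rose and none fell, and of 12 pericentral genes 1 rose and 5 fell. The summed periportal level, unscaled, was 3735 ± 970.4 CPM (SD) in Liver and 4505 ± 1390.0 CPM in Cell Suspension, higher in 8 of 8 mice (exact paired permutation test, adjusted p = 0.019). The unscaled pericentral sum was 2655 ± 372 CPM and 2191 ± 314 CPM, lower in 7 of 8 mice but not past the threshold (adjusted p = 0.0664). On the TMM scale of the gene levels the periportal sum was 3501 ± 807 and 4709 ± 1295 CPM, again higher in 8 of 8 mice, and the pericentral sum 2515 ± 373 and 2338 ± 492 CPM, lower in 6 of 8 mice (exact paired permutation test, adjusted p = 0.688). Lect2 fell by 1.29, Tbx3 by 1.13, and the WNT targets Axin2 and Rnf43 by 0.48 and 0.44, though the call of Axin2 was lost in 5 alternative settings and Rnf43 read 0.10 in spliced RNA alone. Glul, glutamine synthetase of the innermost central cells, had a difference of 0.83 ± 0.32 (adjusted p = 0.0945). The highest difference in the pericentral list was 1.06. Cyp2e1, the study's central marker, did not pass and read 923 to 1795 CPM in Liver and 850 to 1560 CPM in Cell Suspension. Sds and Hal on the portal side rose by 0.91 and 0.67. Whether fewer central nuclei were recovered or their RNA changed cannot be told apart from these sums.

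To ask whether both sides changed alike, nuclei of at least 1000 UMIs were ranked within each sample by 16 zone genes, and the upper and lower 25% were summed as central side and portal side. The 16 genes were left out. Of 22597 genes tested 329 (1.46%) differed between sides in their change, 256 with a change further upward on the central side and 73 with one further downward. Without mouse 4 the count was 195, without mouse 6 200 and without mouse 3 491. With nuclei thinned to 1000 UMIs it was 114, and 62 of these were among the 329. With the mouse in place of the sample as a block it was 99 (91 upward and 8 downward), and division at the median gave 370 (228 and 142). The median of UMIs per nucleus on the central side was 6624 to 16678 in Liver samples and 2046 to 13116 in Cell Suspension, and on the portal side 5987 to 13016 and 2924 to 8040. Central-side nuclei held more than portal-side ones in most Liver samples (8987 against 7146 in mouse 1), though not in mice 2 and 4. In most Cell Suspension samples they held fewer (4596 against 8040 in mouse 1), though not in mouse 3 (13116 against 7428). The mean central-minus-portal score of the central side was 4.20 to 5.84 in Liver and 2.82 to 5.05 in Cell Suspension. The part of depth and score was not tested beyond the thinned nuclei. Slc22a3, an organic cation transporter, read 7.88 ± 3.13 CPM (SD) on the portal side of Liver and 1.74 ± 1.12 CPM there in Cell Suspension. On the central side it read 49.1 ± 16 CPM in Liver and 44 ± 20.9 CPM in Cell Suspension. Its change was thus -2.12 on the portal and -0.18 on the central side, a difference of 2.20 ± 0.48 (edgeR interaction, adjusted p = 0.0322). That call was lost without any of mice 1, 2, 4 and 5, at 1.91 to 2.27. Irs2 rose by 1.39 on the portal and 2.93 on the central side, a difference of 1.54 ± 0.12 (adjusted p = 4.6e-18). Dlec1 and Sox13 differed by 1.86 ± 0.19 and 1.41 ± 0.16.

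The other way, Gm48877, Cxadr, a junction receptor, Pnpt1, a mitochondrial RNA exonuclease, and Jund, an AP-1 subunit, had differences of -0.75 ± 0.20, -0.74 ± 0.17, -0.68 ± 0.16 and -0.66 ± 0.16. The call of Gm48877 was lost without mouse 3, 5 or 6 (-0.73, -0.74 and -0.64), that of Cxadr without mouse 1 or 6 (-0.72 and -0.73), and that of Jund under RLE scaling. Jund rose by 3.31 on the portal and 2.59 on the central side. Over all genes 1.46% differed. Among the listed genes, 5 of 16 heat shock genes rose further on the central side: Hspd1, Dnajb4, Dnaja1, Hspa8 and Hsp90aa1. So did 5 of 24 acute phase genes, Fgg, Fgb, Orm1, Itih4 and Cebpd, while Cebpb rose less there. Both lists hold genes of higher level, with medians in Liver of 26.3 and 40.2 CPM beside 2.11 CPM over all genes. Of 27 immediate early genes only Fosl2, Maff and Jund differed, and the median change was 2.41 on the portal and 2.46 on the central side. No gene of the 85 ribosomal or 79 respiratory chain genes differed at the adjusted threshold. Beside these, 2 endothelial markers, Egfl7 and Ptprb, and the Kupffer cell marker Adgre1 also changed further upward on the central side, and their part in the differences was not tested.

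**Figure D5:**
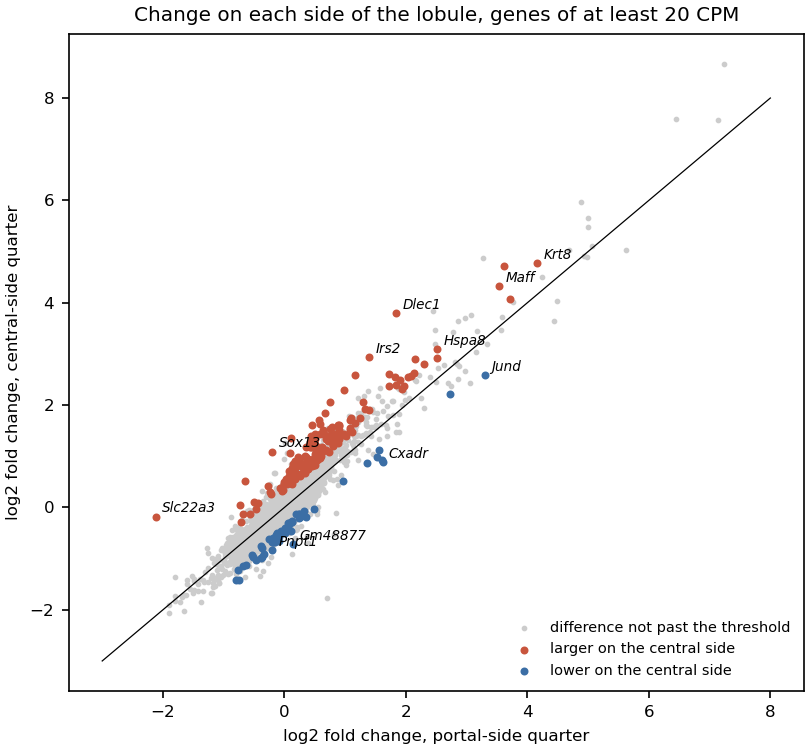
Change on the portal side (x axis) against change on the central side (y axis), both as log2 of Cell Suspension over Liver, for genes of at least 20 CPM, with genes whose changes differed past the threshold in colour. Most points follow the diagonal, and Slc22a3 and Irs2 lie above it.

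Markers of other cell types were tested gene by gene in the same fit. Of 12 endothelial markers 8 rose (66.7% beside 12.2% of all genes) and none fell, with a median of 0.54, though no member exceeded a mean of 11.9 CPM in Cell Suspension. Stab2, a scavenger receptor of sinusoids, read 5.38 to 9.89 CPM (median 8.88) in Liver and 8.32 to 15.4 CPM (median 11.3) in Cell Suspension. Kupffer cell markers rose in 2 of 11 cases (18.2%), stellate markers in 1 of 12 (8.33%) and biliary markers in 1 of 6 tested (16.7%), with none lower. These shares are near the 12.2% of all genes that were higher. The medians of Kupffer cell and biliary markers were 0.56 and 0.54, close to the endothelial one. Those of stellate and leukocyte markers were 0.25 and -0.05. Kupffer cell, biliary and stellate markers had median levels in Liver of 0.67, 0.75 and 0.51 CPM, beside 2.69 CPM for endothelial markers. No leukocyte marker of 8 tested and no mesothelial marker of 5 passed. Of 5 erythroid genes 3 fell and 1 rose. Hba-a1 read 0.104 to 1.21 CPM (median 0.284) in Liver and 0 to 0.883 CPM (median 0) in Cell Suspension, a difference of -2.55, or -1.94 without mouse 4 and -3.34 without mouse 7.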

How the data were processed

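The nuclei of 8 Liver and 8 Cell Suspension samples were analysed, out of 24 samples mixed in 6 hashtagged pools of 4. The authors quantified droplet-based 3′ reads with Salmon Alevin and Alevin-fry against GRCm38, spliced and unspliced, and deposited counts of UMIs, not normalized, for each gene, barcode and splicing state. The authors assigned nuclei to samples with mclust, removed doublets with scDblFinder and annotated clusters in Seurat. Their deposited table gives, beside counts per nucleus, other entries that are labels of sample, cluster and cell type. The nuclei of hashtag CD2 were taken for mouse 2's Cell Suspension, since their group entry says CS. The matrix sums equalled the table's counts for all 35073 nuclei compared.

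The 3 states were added and summed per sample over hepatocyte nuclei, cluster 19 left out. Of 32285 genes, 32158 have a symbol. Genes with at least 10 UMIs over the 16 sums entered a quasi-likelihood fit of edgeR 4.0.16 under R 4.3.3 (TMM, robust dispersion, mouse as a block, then sample type, Benjamini-Hochberg threshold 0.05), the script having been tested on simulated data. UMIs count molecules once, and the sums (2042585 to 29018248) set the precision of low genes. Samples of a mouse come from the same liver, as the study describes. Deviations from the type's mean over 5887 genes of at least 20 CPM correlated at 0.460 to 0.892 within a mouse (between mice a median of -0.107 and at most 0.553, and 7 of 8 Liver samples correlated best with their own mouse). Other measures were compared with two-sided exact paired permutation tests over 8 pairs, whose smallest p is 0.0078, adjusted over 17 measures.

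In the zone comparison the nuclei of the upper and lower 25% of a central-minus-portal score were summed per sample, with sample as a block. Named genes are the 12 largest rises and falls of at least 20 CPM in the higher type with 1 direction in 8 of 8 mice, members of 47 gene lists, and the 4 largest zone differences each way. Genes with predicted or clone names and markers of other cell types were left out of the 12 rises and 12 falls. The comparison, the lists and the members were chosen with earlier results of these data known. Gene coordinates are GRCm38 (GENCODE M21), and promoters come from RefSeq GRCm38.p6, 250 bases searched on both strands and 120 printed. Alternatives were other scalings and filters, DESeq2 1.42.0, no block, splicing states, thinned sums, pools, annotation choices and leaving out each mouse. Sums and tests of measures used scipy 1.17.1, pandas 2.3.3 and numpy 2.4.6 under Python 3.11.15, and plots matplotlib 3.10.9. Cultured samples, hashtag matrices and all other nuclei were not used.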

Additional observations from a re-analysis of the deposited data

Results flagged for a closer look

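Values that stood apart within a sample type were looked for among 17 sample measures and the named genes with Dixon's test at its 95% critical value. It marked 48 of 428 groups of 8, and chance alone gives about 5%. Many of the marked groups belonged to a few mice.

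Mouse 8 was highest in Liver for chaperone genes, with Hspa8 at 88.2 CPM, Hsp90aa1 at 31.5 CPM, Dnajb1 at 4.37 CPM, Dnajb4 at 63.4 CPM and Chordc1 at 93.8 CPM. In Liver of the same mouse Hnf4a read 535 CPM, Foxo1 530 CPM, Mtf1 51.8 CPM and Tsc22d3 526 CPM. Its Cell Suspension sample was highest for Hspa5 (1542 CPM), Manf (16.1 CPM), Chordc1 (62.2 CPM) and Tsc22d3 (408 CPM).

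Mouse 3 stood apart in both sample types for several genes. Cxcl1 read 51.2 CPM in its Liver and 361 CPM in its Cell Suspension sample, Fosl2 20.6 and 30.8 CPM, Itih4 197.8 and 313.5 CPM, and Cyp4a32 589.5 and 281 CPM. Osgin1 was highest in its Liver sample (407 CPM) and Igfbp1 in its Cell Suspension sample (824 CPM).

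The Cell Suspension sample of mouse 1 had the highest share of mitochondrially encoded UMIs (0.309%), with mt-Co1 at 1026 CPM and mt-Nd3 at 35.7 CPM. It was also highest for Trp53inp1 (714 CPM), Cdkn1a (7.0 CPM), Lcn2 (46.0 CPM) and Rps14 (31.1 CPM). In mouse 6, Pklr read 652 CPM in Liver and 639 CPM in Cell Suspension, Got1 482 CPM in Liver and Cyp7a1 314 CPM in Cell Suspension, and Ppp1r15a was lowest in Liver at 3.75 CPM. In mouse 4, Ccn1 (19.9 CPM) and Scd1 (282 CPM) were highest in Liver, and Maff (211 CPM), Nr4a2 (19.96 CPM), Nr0b2 (205 CPM) and Cyp1a2 (345 CPM) in Cell Suspension. The Cell Suspension sample of mouse 7 was lowest for Hif1a (13.2 CPM), and apart for Hba-a1 (0.883 CPM) and Egr3 (1.32 CPM). Single further values were Ier2 in Cell Suspension of mouse 2 (394 CPM, the lowest), Nqo1 in Liver of mouse 2 (5.53 CPM), Ghr in Liver of mouse 5 (11574 CPM) and the erythroid markers in Liver of mouse 7 (10.7 CPM).

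Changes that differed between the central and the portal side, tested as an interaction in edgeR, were those of Slc22a3 (2.20 on the log2 scale), Dlec1 (1.86), Irs2 (1.54) and Sox13 (1.41), further upward on the central side. The reverse held for Gm48877 (-0.75), Cxadr (-0.74), Pnpt1 (-0.68) and Jund (-0.66).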

How the results depend on the processing

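Pairing by mouse mattered for counts more than for directions. Without the mouse block 5273 genes passed, 1937 higher and 3336 lower, and 312 in place of 508 listed genes. Unpaired tests of the sample measures moved the adjusted p past the threshold for the hepatocyte share (difference 13.5 percentage points, exact permutation p adjusted 0.0401) and the pericentral sum (-463.9 CPM, 0.0479), and short of it for the endothelial (15.0 CPM, 0.0611), biliary (-21.6 CPM, 0.220) and periportal sums (770.9 CPM, 0.368). Pool terms replace the mouse block, so both change together: with the pool as a term 4751 genes passed (1777 higher, 2974 lower, 273 listed), and in the pools with both types 4896 (1860 higher, 3036 lower, 285 listed). With either, Abcb11 turned to -0.11 and Cyp3a11 to -0.46. In the 2 mice whose samples shared a pool, an alternative chosen after seeing the data that leaves 1 residual degree of freedom, 4578 passed (1739 higher, 2839 lower). Without mice 3, 5 and 6, also chosen later, 5685 passed. Upper-quartile scaling gave 4577 higher genes. Sums thinned to the smallest gave 5090, with 2601 lower. A fold limit of 1 on the log2 scale left 2001 genes, 835 higher and 1166 lower, and 142 listed. Sums of biliary markers on the TMM scale, also compared later, differed by -4.92 CPM (exact paired permutation test, adjusted p = 0.708). DESeq2 called 7205. Leaving out each mouse gave 6797 to 7878.

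Spliced RNA alone turned the sign of Cyp4a32 (0.55), Elovl5 (-0.29), Insr (0.58), Irs1 (0.15), Lats2 (0.093), Manf (0.0056), Mtf1 (0.26), Nfe2l2 (0.49), Nfkb1 (0.59), Nr1h4 (0.35), Pkhd1 (0.39), Ppara (-0.27), Ppargc1a (-0.33), Rnf43 (0.10) and Slc10a1 (0.19). These signs are on the scale of spliced RNA alone. Of 197 named genes 160 passed. Of these, 75 kept direction and call in every setting in which they were tested, settings with fewer samples and fewer UMIs included. Some of the 75, such as Adh7, Fahd1 and Ier2, were not tested in all settings. Genes that did not pass but did in 5 or more settings were, beside Acaca (11) and Alb (11), Clock (7), Mdm2 (7), Glul (6), Bax (5), Egfl7 (5) and Foxo1 (5). The causes of these changes were not tested.

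The endothelial difference was 12.8 to 17.6 CPM and the pericentral one -588.6 CPM (without mouse 4) to -360.7 CPM when each mouse was left out. For the zone comparison, division at the median instead gave 142 genes lower on the central side. Nuclei thinned to 1000 UMIs gave 114 genes (92 and 22), and the mouse in place of the sample as a block 99 (91 and 8). Leaving out each mouse gave 195 to 491 genes, 146 to 292 of them larger and 31 to 199 lower on the central side. Of the 329 genes, those tested kept their sign in every setting but the thinned one, where 318 of 328 did. Fewer kept their call: 62 of the 328 with thinned nuclei, 96 of 329 with the mouse as the block and 221 of 329 with division at the median. Depth limits genes of a few CPM, for which the smallest sums hold only a handful of UMIs.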
